A study of Mus musculus with 48 samples.

Results

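The 10 genes described here belong to the creatine and calcium cycles, both of which spend ATP and have been proposed to make heat in fat. They are the creatine kinases Ckb, Ckm, Ckmt1 and Ckmt2, the creatine transporter Slc6a8, the creatine synthesis gene Gatm, the phosphatase Alpl, the calcium pumps Atp2a1 and Atp2a2 and the pump regulator Sln. They were picked by symbol, with earlier results of these data known. Each of the 10 symbols matched 1 Ensembl gene among the 56748 identifiers of the count files. The study sequenced polyadenylated RNA from 3 tissues of male littermate mice: brown adipose tissue (BAT), epididymal white adipose tissue (eWAT) and liver. The mice were hepAGT+/+ or hepAGT-/-, the second being named for loss of angiotensinogen (Agt) in hepatocytes, and all groups, controls included, were fed a Western diet (0.2% cholesterol, milk fat at 21%) over 12 weeks. They were housed at room temperature (20 to 22 °C) or at thermoneutrality (30 °C), the temperature at which a mouse spends no extra energy on staying warm. Each of the 12 groups of tissue, genotype and housing held 4 libraries that the labels number as biological replicates, which gave 16 libraries per tissue and 48 in all. The labels used here do not say what drives the deletion, and do not give the age of the mice.

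In the creatine cycle, creatine kinase charges creatine to phosphocreatine with ATP, and a phosphatase releases the phosphate again, so that ATP is spent with no other work done. TNAP, the product of Alpl, has been proposed as that phosphatase in brown fat mitochondria, and cytosolic creatine kinase B (Ckb) has been placed in the same compartment. GATM makes guanidinoacetate, the precursor of creatine, and the transporter SLC6A8 brings creatine into the cell. In the calcium cycle, SERCA pumps (Atp2a1 and Atp2a2) move calcium into the endoplasmic reticulum at the cost of ATP while release channels let it out, and sarcolipin (Sln) uncouples the pump's ATP use from calcium transport in muscle. Skeletal muscle uses the same families: Ckm, Ckmt2, Atp2a1 and Sln are muscle genes, so muscle carried over with a piece of brown fat adds to them.

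The shallowest library of BAT had 25304872 counts and the deepest 39383039. For eWAT these totals were 28656921 and 43687848, and for liver 23711728 and 36503849. Agt in liver checked the genotype labels: it averaged 368 ± 75.5 CPM (CPM, counts scaled to a common library size by TMM; SD, n = 4) in hepAGT+/+ and 167 ± 26.8 in hepAGT-/- mice at room temperature, and 409.5 ± 86.5 against 167 ± 33.8 at thermoneutrality, so some Agt RNA remained. The defining markers of brown fat, mature adipocytes and hepatocytes were high in the tissues so labelled. The sum of 7 brown adipocyte markers lay between 3710 and 13900 CPM in BAT and between 12.4 and 135 in eWAT. In liver that sum was 1460 to 2330 CPM, although Ucp1 was at 14.7 CPM in 1 hepAGT-/- library at room temperature and at 0 in the others. Hepatocyte markers summed to 61900 to 103000 CPM in liver. In BAT, 7 of 16 libraries held more than 500 CPM of 18 summed skeletal muscle markers. The hepAGT+/+ BAT library numbered 12 at room temperature also stood apart from its group: its 3 endothelial markers summed to 377 CPM against 106 to 129 in the other 3, and without it the number of genes called between genotypes in BAT at room temperature went from 16 to 1979. Where leaving out these libraries ends a call named below, that is said beside it. TMM factors in BAT were 0.751 to 0.977 at room temperature and 1.03 to 1.32 at thermoneutrality, so the size of a housing difference in BAT depends on this scaling, and values from library totals alone are given where they matter.

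Per kilobase of exon, which allows genes to be compared, Atp2a2 had the highest median of the 10 genes in every tissue. Its median over 16 libraries was 38.4 CPM per kb in BAT, 27.5 in eWAT and 25.7 in liver. These levels were scaled within each tissue, so orders between tissues are not on a common scale. Tests between tissues are given below. Ckb, the cytosolic brain-type kinase, came next in both fat depots, with a median of 19.6 CPM per kb in eWAT and 13.4 in BAT, and it was low in liver at 1.77. Slc6a8 was highest in BAT (median 5.96), followed by eWAT (3.54) and liver (1.02). Gatm ran the other way, with 3.71 CPM per kb in liver, 2.97 in eWAT and 1.11 in BAT. Alpl stood at 3.93 in BAT and 3.61 in liver and at 1.03 in eWAT. The medians of Ckm, Ckmt2, Atp2a1 and Sln in BAT were 8.21, 0.49, 6.71 and 0 CPM per kb, but their means were 60.8, 10.8, 79.2 and 0.325, with very high values in a few libraries. By mean, Ckm and Atp2a1 thus lay above Atp2a2 in BAT, which averaged 39.6 CPM per kb.

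**Figure D1:**
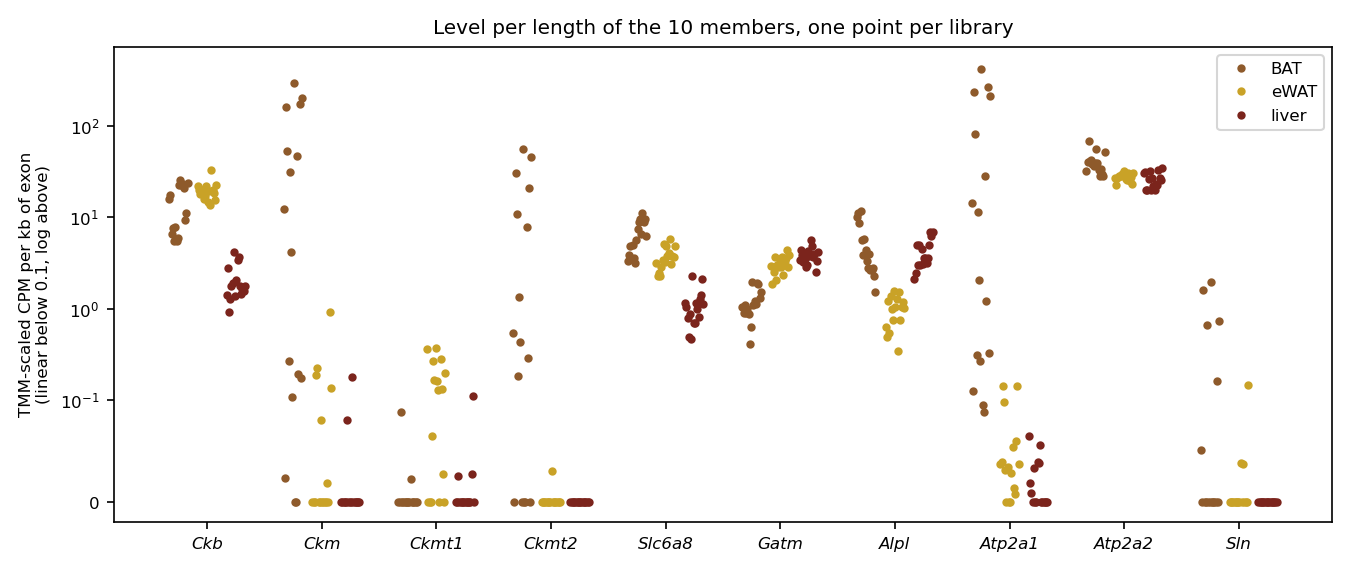
Level of the 10 genes in CPM per kilobase of exon (log scale above the break) in brown fat, epididymal fat and liver. Each point is 1 library, with 16 libraries per tissue, scaled within the tissue. Atp2a2 has the highest medians, at 38.4, 27.5 and 25.7, while Ckm, Atp2a1 and Ckmt2 in brown fat spread over several orders of magnitude and lie at or near 0 elsewhere.

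Levels between tissues were tested in 1 fit over the 48 libraries, as the mean of a tissue's 4 groups. Between BAT and eWAT 9 of 10 genes were called, 7 higher and 2 lower in BAT, where 60.3% of the 21910 genes tested were called. Alpl was 6-fold higher in BAT than in eWAT (log2 2.59, SE 0.154, edgeR adjusted p = 6.84e-19), Slc6a8 2.19-fold higher (log2 1.13, adjusted p = 1.02e-08) and Atp2a2 1.91-fold higher (log2 0.94, adjusted p = 1.37e-11). Gatm was 2.04-fold lower in BAT (log2 -1.03, adjusted p = 4.92e-10). The muscle genes Ckm, Ckmt2, Atp2a1 and Sln were also called higher in BAT, and Ckmt1 lower. Without the 7 muscle-rich BAT libraries 6 genes were called: Atp2a1 still was (log2 4.82, adjusted p = 1.07e-07), Ckm and Ckmt2 were not, and Sln was too low to be tested. The libraries kept were not free of muscle: the hepAGT-/- library 9 at room temperature held 409 CPM of muscle markers and 50.3 CPM of Atp2a1. Ckb was the gene that did not pass: its log2 difference was -0.17 with an approximate 95% interval from -0.50 to 0.15 (edgeR adjusted p = 0.372), and it passed at -0.61 when library totals alone were used. This average hides unlike groups. By levels scaled within each tissue, Ckb averaged 17.9 CPM in BAT and 53.8 in eWAT in hepAGT+/+ mice at room temperature. The means were 34.2 and 57.6 in hepAGT-/- mice there. At thermoneutrality they were 47 and 54.8 in hepAGT+/+ and 67.9 and 58.7 in hepAGT-/- mice.

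Between BAT and liver 8 of 10 genes were called (68.6% of all genes tested), and 5 without the muscle-rich libraries. Ckb was 5.87-fold higher in BAT (log2 2.55, SE 0.175), Slc6a8 5.09-fold higher (log2 2.35) and Atp2a2 1.42-fold higher (log2 0.51), while Gatm was lower in BAT (log2 -1.86). Alpl was not called in this test (log2 0.00, interval -0.31 to 0.31, adjusted p = 1). Its groups went opposite ways, by levels scaled within each tissue. At room temperature Alpl averaged 19.8 CPM in BAT and 15.7 in liver in hepAGT+/+ mice, and 41.8 and 12.7 in hepAGT-/- mice. At thermoneutrality the means were 9.35 and 25.2 in hepAGT+/+ mice, and 12.8 and 14.1 in hepAGT-/- mice. Between liver and eWAT 6 of 10 genes were called (73.8% of all genes tested). Atp2a2 was 1.35-fold higher in liver than in eWAT with TMM scaling (log2 0.43, adjusted p = 8.95e-05), and the sign turned to -0.10 (adjusted p = 0.364) with library totals alone.

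Ckmt1, the ubiquitous mitochondrial creatine kinase, was close to the detection limit. It had 8 counts in all over the 16 BAT libraries, 14 in liver and 193 in eWAT, where 11 of 16 libraries held at least 1 count. In eWAT the hepAGT+/+ mice at room temperature averaged 0.547 ± 0.332 CPM (SD, n = 4) and each of the 4 libraries held counts, between 0.163 and 0.939 CPM. In the hepAGT-/- mice at room temperature 3 of 4 eWAT libraries were at 0 and the fourth at 0.911 CPM. A count of 0 allows up to 0.119 CPM in the shallowest BAT library (3 counts). Ckmt2, the sarcomeric mitochondrial kinase, had no count in any liver library and 2 counts in 1 of 16 eWAT libraries, and Sln had no count in liver and 10 counts in 3 eWAT libraries.

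In BAT, Ckm, Ckmt2 and Atp2a1 were high in the libraries rich in skeletal muscle markers, and Sln in some of them. Ckm, the muscle creatine kinase, stood at 0.780, 90.8, 12.2 and 0.313 CPM in the 4 hepAGT+/+ libraries at room temperature (numbers 12, 15, 17 and 18). It stood at 35.6, 0.0681, 460 and 154 CPM in hepAGT-/- at room temperature (numbers 9, 10, 14 and 19). At thermoneutrality the hepAGT+/+ libraries (numbers 1, 6, 7 and 24) held 0.571, 501, 0.517 and 590 CPM, and the hepAGT-/- libraries (numbers 2, 3, 4 and 5) held 855, 0, 0 and 135 CPM. Every group thus had at least 1 library under 1 CPM and at least 1 at 90.8 CPM or more, and the 4 groups overlapped throughout. The 4 libraries with the most Ckm were also the 4 with the highest muscle marker sums: 9744 CPM in the hepAGT-/- library 2 at thermoneutrality, 7696 and 7367 in the hepAGT+/+ libraries 6 and 24, and 5399 in the hepAGT-/- library 14 at room temperature.

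Atp2a1, the fast-muscle SERCA pump, reached 1457, 922, 737 and 808 CPM in those 4 libraries. It was between 0.307 and 4.21 CPM in the 7 libraries with the least muscle marker signal (70.7 to 112 CPM summed). Ckmt2 reached 81.7 CPM in library 2 (hepAGT-/-, thermoneutral) and 67.2 in library 24 (hepAGT+/+, thermoneutral), and was at 0 in 5 of 16 BAT libraries. Sln was nearly absent: 228 counts over 16 libraries, 10 of them at 0, with the highest values of 2.61 CPM in library 2 and 2.13 CPM in library 14. It did not follow the muscle sum library by library: it was at 0 in the hepAGT-/- libraries 5 and 19 (sums of 1351 and 1803 CPM), at 0.216 CPM in library 6 (7696) and at 0.871 CPM in library 15 (626.5). Per 1000 muscle marker counts it had 0 to 1.05 counts. With the log2 muscle sum as a covariate in the BAT fit, each doubling of the muscle sum went with a log2 rise of 1.70 for Ckm (SE 0.198, edgeR adjusted p = 0.000275), 1.42 for Ckmt2 (SE 0.137), 1.49 for Atp2a1 (SE 0.138) and 1.68 for Sln (SE 0.223). Over all genes tested 292, or 1.62%, were called for that covariate.

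The other tested genes of the cycle did not pass for the muscle covariate. The slope of Atp2a2 was 0.07 per doubling (SE 0.029, edgeR adjusted p = 0.636), and those of Ckb, Slc6a8, Gatm and Alpl lay between -0.05 and 0.05 with adjusted p of 1. In the 9 libraries with muscle markers from 194 CPM upwards, Ckm counts per 1000 muscle marker counts were 47.1 in the lowest library and 74.7 to 115 in the other 8, whereas in the 7 libraries below they were 0 to 8.29. Between housing conditions or genotypes, none of Ckm, Ckmt2, Atp2a1 and Sln was called in BAT by edgeR, and none was at an unadjusted p under 0.05. DESeq2 called Atp2a1 higher at thermoneutrality in hepAGT+/+ mice (log2 5.12, adjusted p = 0.0335), where the muscle sums ran from 70.7 to 7696 CPM at thermoneutrality and from 80.1 to 626.5 at room temperature. With the muscle sum as a covariate the Atp2a1 difference was 0.31 (edgeR adjusted p = 0.804), and without the muscle-rich libraries it was -0.20 (adjusted p = 0.951).

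**Figure D2:**
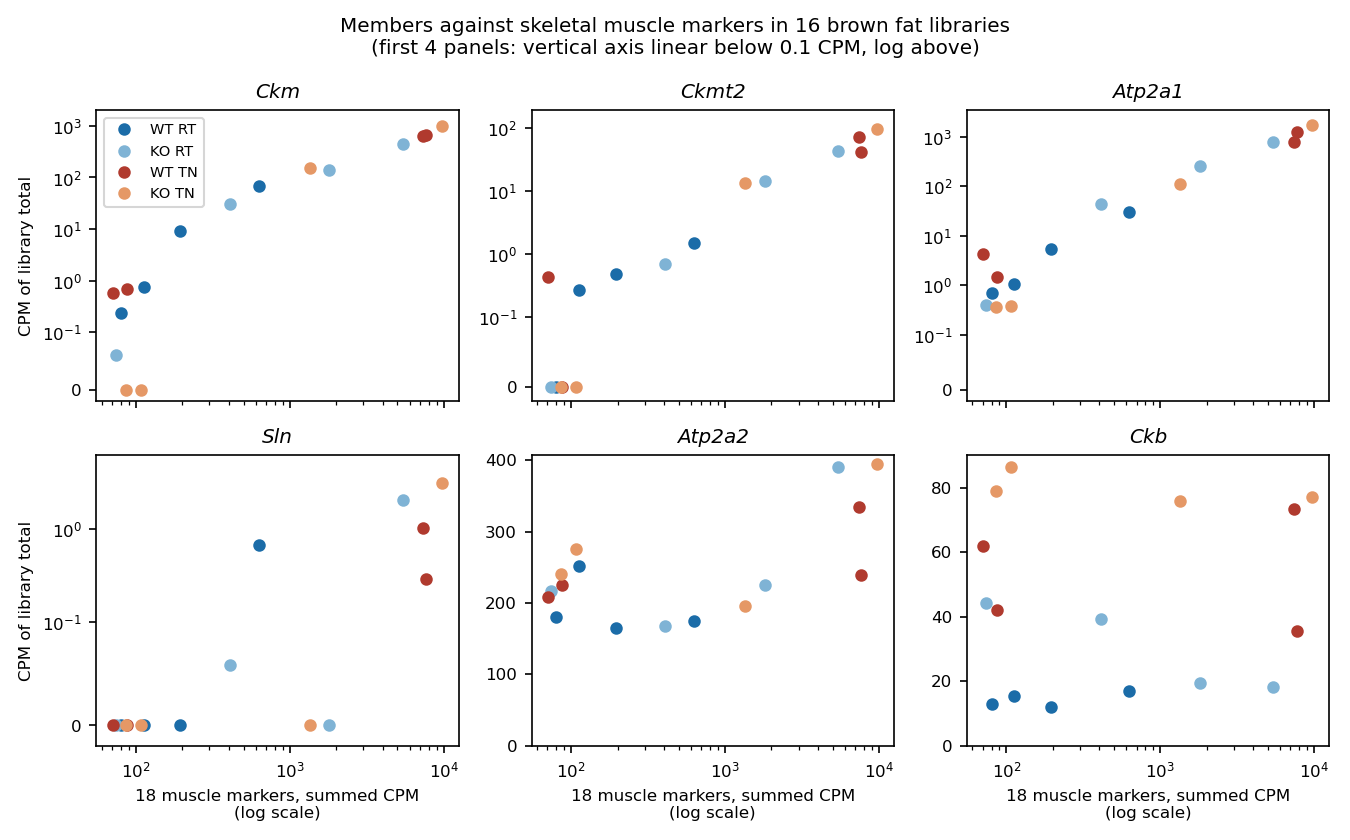
CPM of library total of 6 genes (vertical axis) against the summed CPM of 18 skeletal muscle markers (horizontal axis, log scale) in the 16 brown fat libraries, coloured by genotype and housing. Ckm, Ckmt2 and Atp2a1 climb with the muscle sum from near 0 to 1003, 95.7 and 1707 CPM, Sln reaches 3.06 CPM but is at 0 in some muscle-rich libraries, while Ckb does not follow it and Atp2a2 is high in 3 of the 4 libraries with the most muscle.

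The promoters of these muscle genes were read because these genes were high in the same libraries. RefSeq windows (GRCm38.p6, 250 bases before to 50 after the start) were at hand for 7 of the 10 genes and not for Slc6a8, Atp2a2 and Sln. The E-box (CANNTG, a palindrome read the same on both strands) is the element that myogenic factors bind, and it stood in 72.3% of all 32851 windows of this length. Ckmt2 held 4 of them, at positions -248, -189, -153 and -107 from the start, and Ckm and Atp2a1 held 1 each. Genes outside this muscle set held E-boxes too: 1 and 3 in the 2 windows of Alpl, and 1 each in Gatm and Ckmt1. The share of 72.3% is for windows with at least 1. The stretch of Ckmt2 that carries all 4 (chr13:91876985-91877135, minus strand, positions -250 to -100) is printed here with the E-boxes in capitals.
Ckmt2 promoter: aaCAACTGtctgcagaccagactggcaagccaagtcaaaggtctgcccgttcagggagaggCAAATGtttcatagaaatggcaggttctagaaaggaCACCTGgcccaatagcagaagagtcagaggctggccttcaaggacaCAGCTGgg
A match of these letters is a description of the sequence, not of a bound site.

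The creatine genes that did not follow muscle differed between housing conditions in BAT. In hepAGT+/+ mice Ckb, Slc6a8 and Gatm were 2.09- to 2.62-fold higher at thermoneutrality than at room temperature, and Alpl was 2.12-fold lower. These were 4 of the 9 genes tested (Ckmt1 was too low), with 3 higher and 1 lower, in a comparison where 32.5% of all 18032 genes were called. The median log2 change of the 9 was 1.17, against 0.11 over all genes. In all 4 the libraries of the 2 housing groups did not overlap, which held for 27.2% of all genes. With library totals alone the median over all genes moved to 0.65 in hepAGT+/+ and 0.42 in hepAGT-/- mice, and the split of all calls in hepAGT+/+ mice moved from 2864 higher and 3003 lower to 6782 higher and 995 lower. In hepAGT-/- mice it moved from 1198 higher and 1537 lower to 3548 higher and 572 lower.

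Ckb (chr12:111669361-111672338, minus strand, GRCm38) encodes the cytosolic kinase that charges creatine. In hepAGT+/+ BAT at room temperature it stood at 15.9, 22.7, 16.05 and 17.1 CPM (numbers 12, 15, 17 and 18; mean 17.9 ± 3.21, SD, n = 4). At thermoneutrality the 4 libraries held 60.5, 26.9, 31.8 and 68.9 CPM (numbers 1, 6, 7 and 24; mean 47 ± 20.8). The thermoneutral libraries split into a high and a low pair, and even the low pair lay above all room-temperature libraries. The log2 difference was 1.39 (SE 0.331, edgeR adjusted p = 0.00499), it passed in all 24 alternatives run, and without the 7 muscle-rich libraries it was 1.5 (adjusted p = 0.000734).

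In hepAGT-/- BAT, Ckb stood at 45.8, 50, 19.1 and 21.8 CPM at room temperature (numbers 9, 10, 14 and 19; mean 34.2 ± 16). At thermoneutrality it stood at 65.9, 74.2, 65.45 and 66.2 CPM (numbers 2 to 5; mean 67.9 ± 4.19). All 4 thermoneutral libraries lay above all 4 at room temperature, but the difference narrowly missed the threshold (log2 0.99, SE 0.327, edgeR adjusted p = 0.0539). It passed in 12 of 24 alternatives, among them without the hepAGT-/- room-temperature library 9 or 10 or any 1 hepAGT+/+ thermoneutral library, and was 0.58 (adjusted p = 0.233) without the 7 muscle-rich libraries, which leaves 2 in each group. The change in the 2 genotypes was not shown to differ (interaction log2 -0.40, interval -1.32 to 0.52, adjusted p = 0.773).

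Between genotypes at room temperature, the high pair of hepAGT-/- libraries lay above every hepAGT+/+ library and the low pair overlapped them. The log2 difference in Ckb was 0.93 (SE 0.329, interval 0.27 to 1.59, edgeR adjusted p = 0.156). DESeq2 called it (adjusted p = 0.0446), and without the muscle-rich libraries edgeR called it too (log2 1.52, adjusted p = 0.0224). That fit leaves the high pair of hepAGT-/- libraries, and across alternatives the adjusted p ran from 0.0224 to 0.356. Also, 2 other measures split the same hepAGT-/- libraries: the muscle sums were 409 and 73.8 CPM in the high pair and 5399 and 1803 in the low pair, and the 3 endothelial markers summed to 699 and 591 CPM against 333 and 386. By group, the median endothelial sum was 121 CPM in hepAGT+/+ and 488 in hepAGT-/- mice at room temperature and 691 and 695 at thermoneutrality, so it also differed by housing. In hepAGT+/+ library 24 at thermoneutrality Ckb was the highest of its group (68.9 CPM) and the endothelial sum the lowest (220 CPM). The part of endothelial content in the Ckb values was not tested. In these bulk samples, fewer cells of a type and less RNA per cell cannot be told apart.

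The Ckb promoter is shown because Ckb was the creatine kinase that changed with housing. The 120 bases from -100 to 20 (chr12:111672319-111672438, minus strand, RefSeq, GRCm38.p6) hold a TATA box at -28, in capitals, a motif (TATAAA, both strands) found in 13.6% of all windows. The MEF2 core, found in 3.69% of windows, starts 1 base earlier at -29 and overlaps it. Neither AAGGTCA, the element read by oestrogen-related receptors, nor the cAMP response element TGACGTCA occurs in the 300-base window.
Ckb promoter: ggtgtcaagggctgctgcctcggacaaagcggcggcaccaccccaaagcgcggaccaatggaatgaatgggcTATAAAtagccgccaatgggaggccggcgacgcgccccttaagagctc
Over the 7 genes with a window, AAGGTCA was found once, in Ckmt1 at -179, against 4.72% of all windows, and TGACGTCA in none, against 1.79%.

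Slc6a8 (chrX:73673150-73682502, plus strand), the creatine transporter, had the steadiest difference. In hepAGT+/+ BAT it stood at 25.7, 18.6, 16.3 and 29.5 CPM at room temperature (mean 22.5 ± 6.11, SD, n = 4). At thermoneutrality it stood at 58.5, 46.6, 49.9 and 32.7 CPM (mean 46.9 ± 10.7), with no overlap (log2 1.06, SE 0.205, edgeR adjusted p = 0.000792). In hepAGT-/- BAT the room-temperature libraries held 17.2, 20.3, 25.1 and 18.4 CPM (mean 20.25 ± 3.49). The thermoneutral libraries held 38.7, 46.3, 50.3 and 34 CPM (mean 42.3 ± 7.33), again without overlap (log2 1.06, SE 0.205, adjusted p = 0.00184). Slc6a8 passed in all 24 alternatives in each genotype, between 0.93 and 1.59 in hepAGT+/+ and between 0.99 and 1.44 in hepAGT-/- mice. The interaction was 0.00 (interval -0.57 to 0.57), and the genotypes differed by -0.15 at either temperature (adjusted p = 0.722 at room temperature and 0.999 at thermoneutrality). Median endothelial marker sums were also higher at thermoneutrality, at 691 against 121 CPM in hepAGT+/+ and 695 against 488 in hepAGT-/- mice. Their part in the Slc6a8 change, and in that of Gatm below, was not tested.

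Gatm (chr2:122594467-122611303, minus strand), the first enzyme of creatine synthesis, was the least abundant of the 4. In hepAGT+/+ BAT it stood at 2.98, 2.61, 1.24 and 1.88 CPM at room temperature (mean 2.18 ± 0.776, SD, n = 4) and at 5.67, 5.61, 3.905 and 4.53 CPM at thermoneutrality (mean 4.93 ± 0.862). The groups did not overlap, with a log2 difference of 1.17 (SE 0.297, edgeR adjusted p = 0.00568), and 23 of 24 alternatives kept the call. Without the 7 muscle-rich libraries the size was alike (log2 1.23) and the call was lost (adjusted p = 0.0545), with 3 and 2 libraries left. In hepAGT-/- BAT it averaged 2.99 ± 0.313 CPM at room temperature and 4.06 ± 1.21 at thermoneutrality, where 1 library held 5.87 CPM and the other 3 held 3.34 to 3.63 (log2 0.44, adjusted p = 0.366). The interaction was -0.73 (interval -1.56 to 0.10, adjusted p = 0.539). Markers of other organs also differed between the housing groups of hepAGT+/+ BAT. The sum of 3 kidney markers was 0 to 0.265 CPM at room temperature and 1.18 to 16.6 at thermoneutrality. Hepatocyte markers summed to 23.9 to 381 and 130 to 1060 CPM. In hepAGT-/- BAT the kidney sums overlapped, at 0.349 to 1.55 and 0 to 10.7 CPM. The part of such material in the Gatm values was not tested.

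Alpl (chr4:137741733-137796384, minus strand), the tissue-nonspecific alkaline phosphatase, moved the opposite way to the other 3 genes and was also the one gene of the 10 that edgeR called between genotypes in BAT. In hepAGT+/+ BAT it stood at 22.5, 15.55, 23.6 and 17.6 CPM at room temperature (mean 19.8 ± 3.84, SD, n = 4). At thermoneutrality it stood at 10.8, 11.2, 9.28 and 6.09 CPM (mean 9.35 ± 2.32). The groups did not overlap (log2 -1.08, SE 0.199, edgeR adjusted p = 0.000514). Of 24 alternatives 23 kept the call, and library totals alone gave log2 -0.54 (adjusted p = 0.0781).

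In hepAGT-/- BAT, Alpl stood at 40.2, 44.5, 35 and 47.4 CPM at room temperature (mean 41.8 ± 5.4). At thermoneutrality it stood at 13.5, 11.1, 16.1 and 10.6 CPM (mean 12.8 ± 2.52). The lowest room-temperature library was above the highest thermoneutral one by more than a factor of 2, and the log2 difference was -1.70 (SE 0.2, edgeR adjusted p = 2.26e-05), called in all 24 alternatives. Of the 9 genes tested in hepAGT-/- BAT, 2 were called between housing conditions, Slc6a8 higher and Alpl lower, where 15.2% of all genes were called. With Ckb, 3 of 9 had no overlap between the groups, against 21.3% of all genes.

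At room temperature the 4 hepAGT-/- libraries held 35 to 47.4 CPM of Alpl and the 4 hepAGT+/+ libraries 15.55 to 23.6 CPM, a 2.11-fold difference without overlap. Alpl was 1 of 9 genes tested that was called (log2 1.08, SE 0.197, edgeR adjusted p = 0.0499), where 16 of 18032 genes, or 0.0887%, were called. No overlap held for 9.26% of all genes. The direction was the same in all 24 alternatives, with log2 from 0.96 to 1.21, but the call held in 5 of them. The adjusted p was 0.00713 without the hepAGT+/+ library 12, 0.000174 by DESeq2, 0.0548 with RLE scaling, 0.0622 without the muscle-rich libraries and at most 0.191, without the hepAGT+/+ library 15. Of the 16 fits that leave out 1 BAT library, 3 kept the call, those without library 12 or without the thermoneutral library 2 or 24. The endothelial marker sum differed in the same comparison (medians of 121 CPM in hepAGT+/+ and 488 in hepAGT-/- mice), and its part in the Alpl difference was not tested.

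At thermoneutrality none of the 9 genes tested was called between genotypes in BAT by edgeR, and none by DESeq2. Over all genes edgeR called 0 (0%), with 945 at an unadjusted p under 0.05, and DESeq2 called 19. Alpl was the 1 gene of the 9 at an unadjusted p under 0.05: it averaged 12.8 ± 2.52 CPM in hepAGT-/- and 9.35 ± 2.32 in hepAGT+/+ mice (log2 0.46, interval 0.06 to 0.85, adjusted p = 0.924), with overlap. The interaction of genotype and housing was not called for any of the 9 genes (edgeR called 0% of all genes and DESeq2 25, while 1832 had an unadjusted p under 0.05). For Alpl it was -0.62 (interval -1.17 to -0.06, adjusted p = 0.479), so the genotype difference at the 2 temperatures was not shown to differ.

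**Figure D3:**
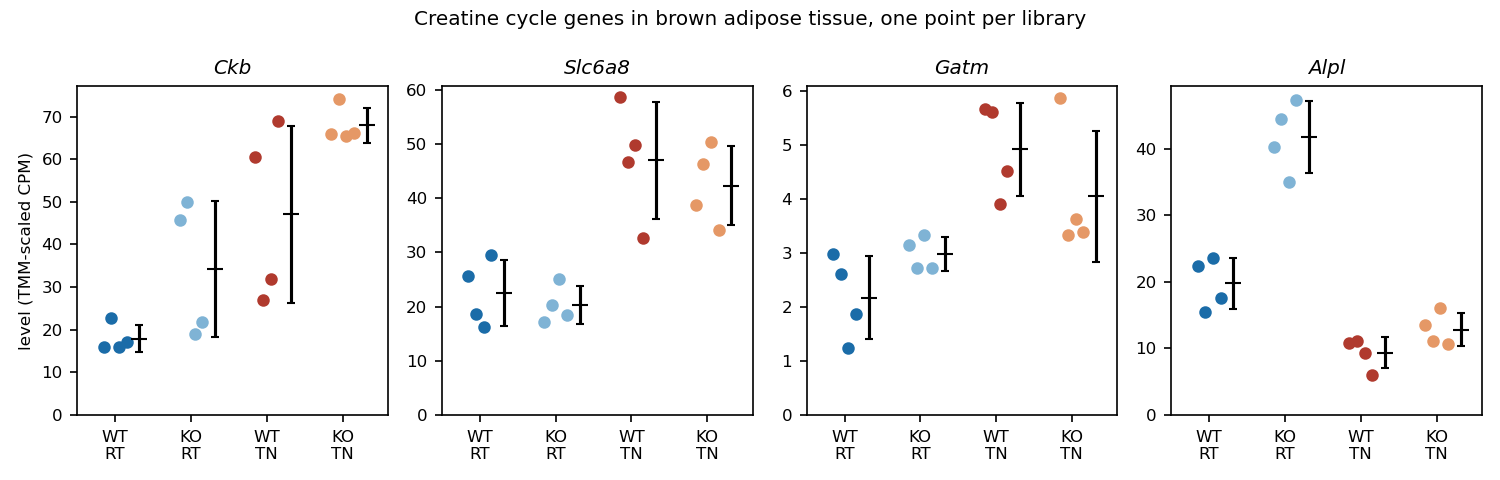
CPM (TMM-scaled, linear axis from 0) of Ckb, Slc6a8, Gatm and Alpl in brown fat by genotype and housing, 1 point per library with the mean and SD of 4. Ckb, Slc6a8 and Gatm have higher means at thermoneutrality in both genotypes, and Alpl is highest in hepAGT-/- mice at room temperature (35 to 47.4 CPM).

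The Alpl gene has 2 annotated starts, and stretches of both are shown because gene-level counts cannot tell which one the mice used. The upstream start (chr4:137796365-137796484, minus strand, positions -100 to 20, RefSeq, GRCm38.p6) lies in GC-rich sequence with 3 GC boxes (GGGCGG, both strands, in 35.7% of windows) at -15, -10 and 1, the first 2 of which overlap, and no TATAAA. For the downstream start the stretch shown (chr4:137766575-137766725, minus strand, positions -250 to -100) ends before the start itself. The window of that start has no GC box. It has a match of the letters TATAAA on the opposite strand at -192, printed as TTTATA in capitals.
Alpl upstream start: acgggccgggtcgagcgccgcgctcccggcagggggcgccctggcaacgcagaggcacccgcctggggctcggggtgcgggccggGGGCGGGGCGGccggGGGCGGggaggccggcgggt
Alpl downstream start: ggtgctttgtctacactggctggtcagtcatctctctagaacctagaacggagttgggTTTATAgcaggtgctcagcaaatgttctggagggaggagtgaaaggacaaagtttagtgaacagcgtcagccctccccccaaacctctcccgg
Neither window holds AAGGTCA or TGACGTCA.

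Atp2a2 (chr5:122453513-122502225, minus strand), which encodes the SERCA2 pump of most tissues and of slow muscle, showed no called difference in BAT. It stood at 258, 230, 219 and 238 CPM in hepAGT+/+ mice at room temperature (numbers 12, 15, 17 and 18) and at 202.5, 181, 170 and 313 at thermoneutrality (numbers 1, 6, 7 and 24). In hepAGT-/- mice it stood at 195, 243, 408 and 252 CPM at room temperature (numbers 9, 10, 14 and 19) and at 337, 237, 199 and 171 at thermoneutrality (numbers 2 to 5). In 3 of the 4 groups 1 library held 313 CPM or more and the others at most 252. These 3 libraries were among the 4 with the most slow-muscle markers: the summed CPM of 5 slow-muscle genes was 897 in library 2, 444 in library 14 and 98 in library 24, against 155 in library 6 (181 CPM of Atp2a2) and at most 17.9 in the other 12. The housing change was -0.13 in hepAGT+/+ (interval -0.61 to 0.36, edgeR adjusted p = 0.722) and -0.22 in hepAGT-/- mice (interval -0.70 to 0.26, adjusted p = 0.626). Its sign in hepAGT+/+ mice turned to 0.38 (adjusted p = 0.225) with library totals alone.

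In eWAT no difference with housing was called in hepAGT+/+ mice. Ckb averaged 53.8 ± 8.13 CPM at room temperature and 54.8 ± 8.33 at thermoneutrality in hepAGT+/+ mice (log2 0.03, interval -0.41 to 0.46). In hepAGT-/- mice it averaged 57.6 ± 5.15 and 58.7 ± 25.9 CPM, the last with 1 library at 96 and the other 3 at 39.7 to 56.6. None of the 7 genes tested was called between the housing conditions in hepAGT+/+ eWAT, and none was at an unadjusted p under 0.05. Over all genes edgeR called 0 (0%), with 1324 at an unadjusted p under 0.05, and DESeq2 called 104.

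Slc6a8 was the only gene of the 7 called in eWAT, and in 1 comparison. In hepAGT-/- mice it stood at 16.4, 11.75, 12.8 and 11.85 CPM at room temperature (mean 13.2 ± 2.18, SD, n = 4) and at 25.15, 19.85, 21.4 and 30.25 CPM at thermoneutrality (mean 24.2 ± 4.62). The groups did not overlap (9.25% of all genes), and the 1.83-fold rise passed (log2 0.87, SE 0.194, edgeR adjusted p = 0.0335), where 1.74% of all genes were called. It held in 16 of 22 alternatives. The call was lost without the room-temperature library 10 or 19 or the thermoneutral library 3, 4 or 21, all hepAGT-/-, with an adjusted p of at most 0.127 (library 3). Hepatocyte markers separated the same groups, at 2469 to 7378 CPM at room temperature and 1113 to 2103 at thermoneutrality, and their part in the Slc6a8 difference was not tested. In hepAGT+/+ mice Slc6a8 stood at 15.1, 17.7, 26.8 and 17 CPM at room temperature and at 16, 19.6, 19.1 and 25.4 CPM at thermoneutrality (log2 0.06, adjusted p = 0.993). The interaction was 0.81 (interval 0.26 to 1.35, adjusted p = 0.571), so a difference between genotypes in the housing change was not shown.

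Between genotypes in eWAT, none of the 7 genes was called at room temperature (4.34% of all genes) or at thermoneutrality (0.586%), by edgeR or DESeq2, with 1 gene at an unadjusted p under 0.05 in each. At room temperature Slc6a8 was lower in hepAGT-/- mice (13.2 against 19.1 CPM, log2 -0.54, adjusted p = 0.13), and the range of 11.75 to 16.4 CPM overlapped the hepAGT+/+ range of 15.1 to 26.8. Atp2a2 had no overlap there, at 137 to 169.3 CPM in hepAGT-/- and 169.4 to 192 in hepAGT+/+ mice (log2 -0.17, adjusted p = 0.425), where 10.9% of all genes had none. Alpl was low throughout eWAT, with group means between 2.9 and 4.75 CPM. Other material in the eWAT pieces varied too: over all 16 libraries hepatocyte markers summed to 650 to 7380 CPM and B cell markers to 210 to 658 CPM. At room temperature epididymis markers summed to at most 907 CPM in hepAGT+/+ (median 5.68) and at most 20 CPM in hepAGT-/- mice. The part of such material in the eWAT values was not tested.

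In liver, 5 of the 10 genes were abundant enough to test, and Alpl was the one called. At thermoneutrality Alpl stood at 20.2, 27.6, 25.4 and 27.8 CPM in hepAGT+/+ mice (mean 25.2 ± 3.52, SD, n = 4) and at 14.5, 14.5, 12.7 and 14.6 CPM in hepAGT-/- mice (mean 14.1 ± 0.929). The groups did not overlap, as for 12.5% of all genes, and Alpl was 1.79-fold lower in hepAGT-/- mice (log2 -0.84, SE 0.224, edgeR adjusted p = 0.0407), where 3.18% of all genes were called. The call held in 14 of 22 alternatives. It was lost on leaving out any of the 4 hepAGT-/- libraries or the hepAGT+/+ library 6, 7 or 24 at thermoneutrality, with an adjusted p of at most 0.11. At room temperature the means were 15.7 ± 4.12 CPM in hepAGT+/+ and 12.7 ± 5.17 in hepAGT-/- mice (log2 -0.31, adjusted p = 0.693), and the groups overlapped.

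The liver difference in Alpl thus had the opposite sign to the one in BAT at room temperature, at the other housing temperature. Atp2a2 in liver at thermoneutrality also had no overlap: 197, 163, 154 and 208 CPM in hepAGT+/+ and 133, 121, 141 and 136 in hepAGT-/- mice, though the difference did not pass (log2 -0.44, SE 0.162, edgeR adjusted p = 0.143). None of the 5 was called between genotypes at room temperature (0.0853% of all genes called), with housing in hepAGT+/+ (0.0227%) or with housing in hepAGT-/- mice (0.114%), by edgeR or DESeq2, with 0, 1 and 1 genes at an unadjusted p under 0.05. Ckb was low in liver, with group means of 4.67 to 7.94 CPM, and Gatm was 10.3 to 13.5 CPM.

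**Figure D4:**
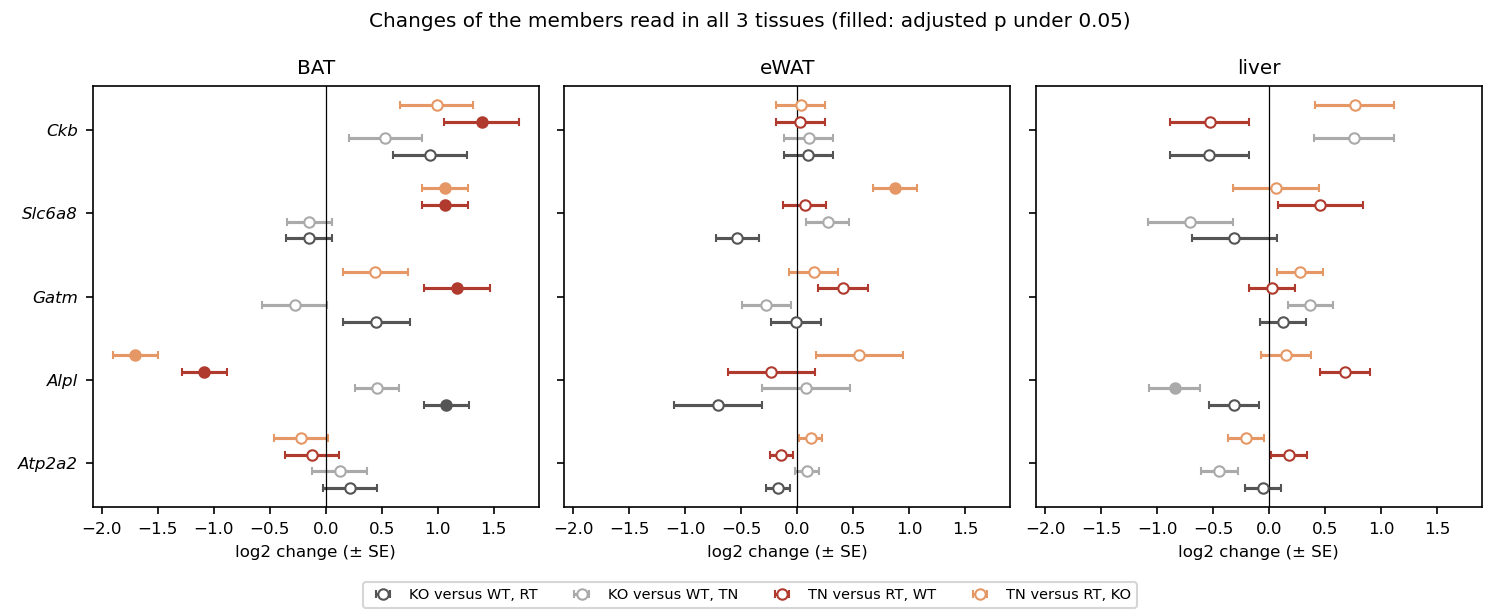
Log2 change ± SE of the 5 genes tested in all 3 tissues (vertical axis) for each genotype and housing comparison, filled where the edgeR adjusted p was under 0.05. Filled points are Ckb, Slc6a8, Gatm and Alpl with housing and Alpl with genotype in brown fat, Slc6a8 with housing in hepAGT-/- epididymal fat, and Alpl with genotype in liver at thermoneutrality.

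Whether a housing change differed between the 2 fat depots was tested directly in the fit over 48 libraries. In hepAGT+/+ mice 1 of 10 genes was called (13.9% of all genes): the Ckb change was larger in BAT than in eWAT by 1.37 on the log2 scale (SE 0.464, edgeR adjusted p = 0.0415), which held in 25 of 38 alternatives. The call was lost without the hepAGT+/+ BAT library 1, 12, 17, 18 or 24 or the hepAGT+/+ eWAT library 6, 7, 8, 12, 15 or 18. It was also lost without a filter and with the replicate number, which recurs across tissues, as a block. Slc6a8 had a like difference that did not pass (1.00, interval 0.17 to 1.83, adjusted p = 0.101). In hepAGT-/- mice 1 of 10 was called (2.88% of all genes): the Alpl change differed by -2.25 (SE 0.418, adjusted p = 0.000944), which held in all 38 alternatives. The Ckb difference in hepAGT-/- mice was 0.98 (interval 0.05 to 1.90, adjusted p = 0.271). These depot differences rest on the same BAT and eWAT libraries as the changes given above.

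Genes around the creatine cycle moved in BAT in both directions. Of 19 genes listed for creatine synthesis, methyl and arginine supply, creatine release, adenine nucleotide carriers, porins and adenylate kinases, 18 were tested in BAT. In hepAGT+/+ mice 4 were higher and 6 lower at thermoneutrality, with a median log2 change of -0.35 against 0.11 over all genes, of which 15.9% were higher and 16.7% lower. Gamt, which methylates guanidinoacetate to creatine, rose from 3.41 ± 0.816 to 7.42 ± 0.47 CPM (log2 1.12, edgeR adjusted p = 0.012). Slc7a1, an arginine transporter, rose from 1.99 ± 1.7 to 6.91 ± 0.495 CPM (log2 1.79, adjusted p = 0.00644), and the transporter Slc16a9 from 0.69 ± 0.421 to 2.21 ± 0.784 CPM (log2 1.66, adjusted p = 0.045). The Slc16a9 call was lost without the muscle-rich libraries (log2 1.72, adjusted p = 0.117) and without library 12 (log2 1.75, adjusted p = 0.0594). Ak4, a mitochondrial adenylate kinase, fell from 4.39 ± 1.57 to 1.96 ± 0.875 CPM (log2 -1.16, adjusted p = 0.0274). With library totals alone the count was 4 higher and 1 lower.

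In hepAGT-/- BAT 2 of the 18 were higher and none lower, against 6.64% and 8.52% of all genes: Gamt, from 2.49 ± 1.12 to 7.72 ± 3.31 CPM (log2 1.63, edgeR adjusted p = 0.0023), and Mat2a, which makes the methyl donor S-adenosylmethionine, from 128 ± 27.9 to 201 ± 15.5 CPM (log2 0.65, adjusted p = 0.0157). Without the muscle-rich libraries, with 2 left in each group, neither passed, at log2 1.18 for Gamt (adjusted p = 0.141) and 0.89 for Mat2a (adjusted p = 0.0638). No gene of the list was called between genotypes in BAT by edgeR at either temperature, with 3 and 0 at an unadjusted p under 0.05. DESeq2 called 2 at room temperature and 0 at thermoneutrality, and without the hepAGT+/+ library 12 edgeR called 1 higher and 3 lower at room temperature. In eWAT the porin Vdac3 was higher in hepAGT-/- mice at room temperature (122 ± 22.4 against 90.5 ± 8.61 CPM, log2 0.43, adjusted p = 0.0407) and fell to 88.3 ± 2.64 CPM at thermoneutrality (log2 -0.47, adjusted p = 0.0473). These 2 comparisons share the 4 hepAGT-/- libraries at room temperature.

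Of 28 genes listed for calcium release, buffering and mitochondrial or store-operated entry, 27 were in the files and 26 were tested in BAT. In hepAGT+/+ mice 4 were higher and 4 lower at thermoneutrality, a share near that of all genes (15.9% higher and 16.7% lower). In hepAGT-/- mice 3 were higher and 4 lower, where 6.64% of all genes were higher and 8.52% lower. Letm1, an ion exchanger of the inner mitochondrial membrane, fell from 427 ± 48.1 to 100 ± 22.6 CPM in hepAGT+/+ (log2 -2.09, edgeR adjusted p = 3e-06) and from 436 ± 31.1 to 115 ± 37.6 CPM in hepAGT-/- mice (log2 -1.92, adjusted p = 9.07e-06). The release channel Ryr2 fell from 12.9 ± 6.9 to 2.14 ± 1.02 CPM (log2 -2.59) and from 12.2 ± 1.52 to 0.925 ± 0.431 CPM (log2 -3.71). Casq2, a luminal calcium buffer, rose from 2.04 ± 0.888 to 8.18 ± 1.79 CPM (log2 2.01, adjusted p = 0.000806) and from 3.28 ± 1.42 to 7.74 ± 3.87 CPM (log2 1.24, adjusted p = 0.033), the second of which was lost without the muscle-rich libraries (log2 0.76, adjusted p = 0.408).

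Smaller changes completed the named calcium genes in BAT. The pump Atp2a3 rose in hepAGT+/+ mice from 5.99 ± 1.72 to 13.5 ± 6.2 CPM (log2 1.17, edgeR adjusted p = 0.0187). Smdt1, a subunit of the mitochondrial calcium uniporter, fell from 131 ± 26.9 to 59.1 ± 13 CPM in hepAGT+/+ (log2 -1.14, adjusted p = 0.000137) and from 126 ± 23 to 64.4 ± 2.16 CPM in hepAGT-/- mice (log2 -0.97, adjusted p = 0.00118). With library totals alone the hepAGT+/+ count became 9 higher and 3 lower, and without the muscle-rich libraries the hepAGT-/- count became 1 higher and 4 lower. No calcium gene was called between genotypes in BAT by edgeR, with 3 at an unadjusted p under 0.05 at room temperature and 1 at thermoneutrality, against 2 and 0 called by DESeq2. At room temperature edgeR called 2 higher in hepAGT-/- mice without library 12 and 1 higher without the muscle-rich libraries.

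Between genotypes in eWAT at room temperature 5 of 24 calcium genes tested were called, all lower in hepAGT-/- mice, as were 3.13% of all genes. Atp2a3 fell from 166 ± 39.7 to 59.4 ± 19.5 CPM (log2 -1.49, edgeR adjusted p = 0.0155), the calcium sensor Stim2 from 54.6 ± 9.17 to 27 ± 4.51 CPM (log2 -1.02, adjusted p = 0.00223) and the IP3 receptor Itpr1 from 70.3 ± 6.65 to 42.6 ± 9.54 CPM (log2 -0.72, adjusted p = 0.0214). Casq1, which is also one of the 18 muscle markers, fell from 4.65 ± 1.08 to 0.341 ± 0.266 CPM (log2 -3.74, adjusted p = 0.0115), while the whole muscle marker sum in eWAT stayed between 70 and 115 CPM. At thermoneutrality none of the 24 was called by edgeR, with 10 at an unadjusted p under 0.05, and 5 were called by DESeq2. In liver Letm1 was lower in hepAGT-/- mice at thermoneutrality (54.8 ± 5.79 against 78.1 ± 1.8 CPM, log2 -0.51, adjusted p = 0.0192), 1 of 20 tested.

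For reference, of 10 listed brown fat regulators 5 fell and none rose at thermoneutrality in hepAGT+/+ BAT, against 16.7% of all genes lower. Ucp1, the uncoupling protein, fell from 8020 ± 2480 to 2210 ± 1480 CPM (log2 -1.86, edgeR adjusted p = 0.00175) and Elovl3, a fatty acid elongase, from 270 ± 72.1 to 1.81 ± 1.82 CPM (log2 -7.22, adjusted p = 0.000196). In hepAGT-/- BAT 4 fell and none rose, against 8.52% of all genes lower, with Ucp1 going from 6510 ± 1720 to 1930 ± 700 CPM (log2 -1.76, adjusted p = 0.00568). With library totals alone 3 fell in hepAGT+/+ and 2 in hepAGT-/- mice. Alpl fell beside Ucp1, while Ckb, Slc6a8 and Gatm in hepAGT+/+ mice rose.

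The genes with the most similar pattern were found by Pearson correlation of log2(CPM + 0.5) over the 12 group means, among 13000 genes. The 12 points share tissue, so the value mostly describes the order of the 3 tissues. Ckm was closest to the fast troponin gene Tnnt3 (r = 0.998), then Tnni2 and Myoz1, and Atp2a1 to the fast myosin gene Myh4 (r = 0.999), then Tcap and Actn2. Ckmt2 was closest to Smtnl1 (r = 0.9995), Mylk2 and Hrc. Ckb was closest to Rhoj (r = 0.994), Jdp2 and Galnt15. Gatm was closest to Plxnc1 (r = 0.987), Alpl to Zfp93 (r = 0.974) and Atp2a2 to Cmtm4 (r = 0.97).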

How the data were processed

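RNA was extracted with Maxwell RSC simplyRNA kits, made into NEBNext Ultra libraries and sequenced paired-end on an Illumina NovaSeq, per the labels' protocols. The deposited values are raw read counts per Ensembl gene. The submitters' processing notes name fastp, STAR 2.6.1d, featureCounts 1.5.0-p3 and GRCm38. The annotation release and the strand setting are not given in the sources used here. A gene-name table gave symbols to 52073 of 56748 identifiers (91.8%), and positions and exonic lengths came from GENCODE M21 (GRCm38). Antisense partners and near-identical copies cannot be told apart.

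Each tissue was fitted apart with edgeR 4.0.16 (R 4.3.3): TMM scaling, genes kept by filterByExpr at a minimum count of 10 (18032 in BAT, 18933 in eWAT, 17594 in liver), 1 mean per group, robust quasi-likelihood tests, 2-sided, with Benjamini-Hochberg adjustment over all genes tested and a threshold of 0.05. Tissue and depot comparisons used 1 fit of 48 libraries (21910 genes). "Called" or "passed" means an adjusted p under 0.05. SE is the absolute log2 change over the square root of F, and intervals are 2 SE either way. Levels are TMM-scaled CPM within a tissue, and marker sums are CPM of library totals. The fit was also run on simulated counts, with equal numbers of genes raised and lowered in the hepAGT+/+ thermoneutral group of each tissue. That run did not imitate the scaling differences seen in BAT, and its outcome is not reported here. Alternatives were RLE scaling, DESeq2 1.42.0, other filters, only the 8 libraries compared, a muscle covariate, the replicate number as a block and leaving out each library. Chosen after seeing the data were: no scaling factors, leaving out the 7 BAT libraries over 500 CPM of muscle markers, the leave-outs over 48 libraries, and all alternatives for the partner lists. The 10 genes are always named. Of the partner and reference lists, up to 4 called genes with the largest change and a mean of at least 1 CPM are named per comparison, not all of them in the text. Similar genes are the top 3 by correlation, and those of Slc6a8 are not reported here. The genes and lists were chosen with earlier results of these data known. In 72 library pairs within groups the counts differed beyond sampling noise (chi-square per degree of freedom 17.1 to 269), so none was a duplicate. Counts of 0 are given an upper limit of 3 counts, which covers counting error only.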

Additional observations from a re-analysis of the deposited data

Results flagged for a closer look

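Within groups of 4, a library was singled out where its gap to the nearest other was, as a share of the group's range, above Dixon's 95% critical value. For independent, normally distributed values, chance gives this in about 1 in 20 groups. Of 84 combinations of gene and group, 14 had such a library, where 1 in 20 would be 4.2. These numbers do not measure an excess over chance, because a group with counts in only 1 library always meets the rule. The muscle genes Ckm, Ckmt2, Atp2a1 and Sln were also often high in the same BAT libraries, so their combinations are not independent. Of the 14, 10 concern these muscle genes, 8 of them in BAT and 2 in eWAT.

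In BAT, the hepAGT-/- library 2 at thermoneutrality was apart for Ckm (855 CPM), Ckmt2 (81.7 CPM), Atp2a1 (1457 CPM), Sln (2.61 CPM) and Gatm (5.87 CPM), and it held the most muscle markers (9744 CPM). The hepAGT+/+ library 15 at room temperature was apart for Ckm (90.8 CPM), Atp2a1 (39.5 CPM) and Sln (0.871 CPM), with 626.5 CPM of muscle markers, the most of its group. The hepAGT-/- library 14 at room temperature was apart for Sln (2.13 CPM), with 5399 CPM of muscle markers. Ckb was apart in the hepAGT-/- library 3 at thermoneutrality, at 74.2 CPM against a group median of 66.05.

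In eWAT, Ckm stood at 2.71 CPM in the hepAGT+/+ library 8 at thermoneutrality and at 0.546 CPM in the hepAGT-/- library 19 at room temperature, and Ckmt1 stood at 0.911 CPM in the hepAGT-/- library 9 at room temperature, the others of these last 2 groups being at 0. In liver, Alpl stood at 12.7 CPM in the hepAGT-/- library 5 at thermoneutrality against a median of 14.5.

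The housing change differed between BAT and eWAT, by the test of the difference itself, for Ckb in hepAGT+/+ mice (log2 1.37, edgeR adjusted p = 0.0415) and for Alpl in hepAGT-/- mice (log2 -2.25, edgeR adjusted p = 0.000944). With the replicate number as a block the Ckb call was lost and the Alpl call held.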

How the results depend on the processing

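The 34 called changes of single genes over 20 comparisons gave 1156 values under alternatives: 1093 kept the direction and the call, 62 kept the direction and lost the call, and 1 reversed, Atp2a2 between liver and eWAT, at log2 -0.10 with library totals alone. Of 121 tested changes that were not called, 7 were called under some alternative and 51 changed sign. Between genotypes in BAT at room temperature, 1 gene was called. The count was 0 with RLE scaling, with at least 1 CPM in 4 libraries, with library totals alone, with only the 8 libraries compared and with the muscle covariate, 2 with DESeq2, and 0 to 1 when 1 library was left out. For hepAGT-/- eWAT with housing the count of 1 became 0 with only the 8 libraries compared, and 0 to 1 when 1 library was left out. For liver between genotypes at thermoneutrality it became 0 with library totals alone, and 0 to 1 when 1 library was left out. The depot difference in hepAGT+/+ mice had 1 gene called, 0 without a filter, 3 with library totals alone and 0 to 1 when 1 library was left out. Between BAT and liver 8 genes became 5 without the muscle-rich libraries. Apart from the steps these names describe, the cause was not tested.

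Replicate numbers are shared across tissues, and no number occurs in more than 1 combination of genotype and housing. The main tissue and depot fits treat same-numbered libraries as independent. Of 35 same-numbered pairs 2 had a correlation over 0.1, with medians of -0.104 (BAT and eWAT), 0.0232 (BAT and liver) and 0.0334 (eWAT and liver). Pairs with different numbers had medians of 0.0192, -0.00884 and -0.00862 in that order. Same-numbered pairs were thus lower in the first case and slightly higher in the others, which does not settle whether they share a mouse. With the number as a block, 7, 7 and 5 genes were called between BAT and eWAT, BAT and liver, and liver and eWAT, against 9, 8 and 6. The depot difference called 0 in hepAGT+/+ mice (Ckb log2 1.04, edgeR adjusted p = 0.24) and 1 in hepAGT-/- mice (Alpl log2 -2.36, adjusted p = 0.00546). Liver libraries were not left out in turn in the fit of 48 libraries.

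Depth limits Ckmt1 and Sln, where a few counts decide a library's value, and with 4 libraries a group an uncalled difference can be wide: Ckb between genotypes in BAT at thermoneutrality had a log2 interval of -0.12 to 1.18.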
